A study of Homo sapiens with 6 samples.

Results

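The mRNA-seq libraries of this study compared the poly(A) RNA of HEK293T cells in growth with that of the same cells after PP242, and the response described here is that of transcripts outside the ribosomal protein genes. Of 38438 RefSeq accessions with values in 4 libraries, 21014 had a mean of at least 1 RPKM (reads per kilobase of transcript, scaled to the mapped reads of a library). Of these, 169 belonged to ribosomal protein genes and their copies, and the other 20845 were taken as members. They comprised 18304 mRNAs, 2325 long noncoding RNAs and 216 small RNAs, and they stood for 11615 named genes, while 913 accessions had no gene name in the sources used here.

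HEK293T is a human embryonic kidney line that carries the SV40 large T antigen. Cells in the growing condition were kept in DMEM with fetal bovine serum and received no inhibitor. Cells in the mTOR-inactive condition had the same culture and received 2.5 µM PP242, and the duration of treatment for these libraries is not given in the sources used here. No 4-thiouridine was added to either. Each condition had 2 libraries, which the design calls biological duplicates, prepared with a strand-specific protocol.

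mTOR is a kinase that acts in 2 complexes, mTORC1 and mTORC2. It couples growth factors and amino acids to protein synthesis, ribosome production and the uptake of nutrients. PP242 competes with ATP for the kinase and so acts on both complexes, including the step by which mTORC2 activates AKT. When AKT is inactive, FOXO transcription factors stay in the nucleus, and in many cell types other growth signals such as the ERK pathway are rewired. RPKM values are shares of the mapped reads of a library, so that a change common to all transcripts would not be seen in them. In RNA from whole cultures, fewer cells of a type and less RNA per cell cannot be told apart.

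The libraries were alike in depth and composition. Between 36046 and 36149 accessions had a value above 0, and the step between low RPKM values put the depth of the libraries at 1.0 to 1.06 of that of growing library 1. Ribosomal protein transcripts held 20.1% to 20.9% of the summed RPKM. Of 13 markers listed for the epithelial and neuronal character of HEK293T, 11 reached 1 RPKM, among them VIM, which was higher after PP242, and KRT10, which was lower, whereas 0 of 5 blood cell markers in the table did. Among 7 hepatocyte and intestine markers CDX2 alone passed, and among 8 fibroblast and muscle markers ACTA2 and COL1A1 passed at 1.16 to 1.84 RPKM.

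PP242 changed many transcripts by small amounts. Changes are given as the log2 of RPKM + 1 after PP242 minus that in growth, with the standard error of limma, and a transcript is called where the Benjamini-Hochberg adjusted p over all 21014 transcripts is under 0.05. Outside ribosomal proteins 727 transcripts were higher and 1356 were lower, which is 3.49% and 6.51% of those tested, or 9.99% together. Over all 21014 transcripts these shares were 3.48%, 6.45% and 9.93%. Taking for each gene the accession with the most RPKM, 461 genes were higher and 979 lower, 3.97% and 8.43% of 11615, or 12.4% together. These percentages are the background for every list below. The median change was 0.21 in the genes called higher and -0.23 in those called lower, and only 7 rose and 3 fell by more than 1.0 on this scale.

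The libraries of the conditions did not overlap in 6900 genes, 59.4% of those tested. With 2 libraries against 2, the share expected without any change is 0.333. Among genes of 100 RPKM or more the standard deviation over genes was 0.04 between the growing libraries, 0.05 between the PP242 libraries and 0.07 between the means of the conditions. At 1 to 5 RPKM the same values were 0.13, 0.13 and 0.16. Means of 2 libraries vary less than single libraries. Between single libraries of different conditions the standard deviation was 0.07 to 0.08 at 100 RPKM or more, and 0.18 to 0.19 at 1 to 5 RPKM. The number of calls depended on having all libraries. Without growing library 1 it was 310 transcripts higher and 553 lower, without growing library 2 it was 324 and 647, without PP242 library 1 it was 346 and 687, and without PP242 library 2 it was 318 and 741.

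**Figure D1:**
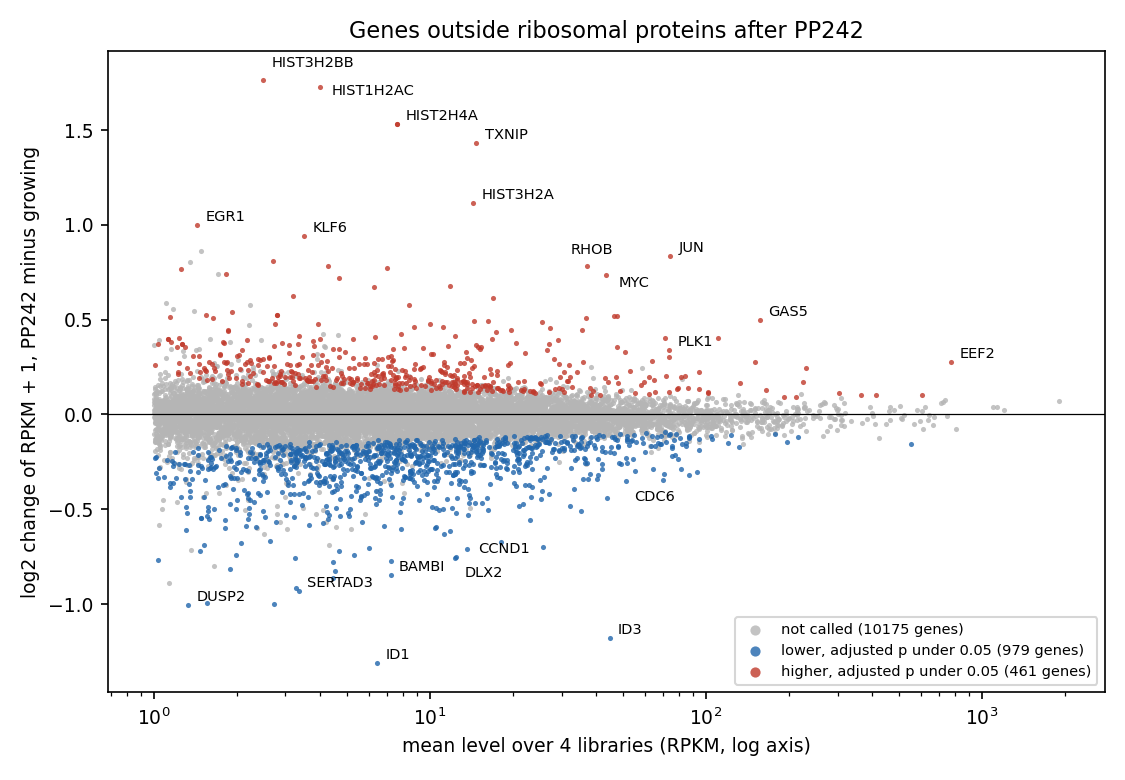
Log2 change of RPKM + 1 after PP242 (vertical) against the mean RPKM of the 4 libraries (horizontal, log axis), with 1 point for each of 11615 genes outside ribosomal proteins, red where called higher (461) and blue where called lower (979). Most points lie close to 0, histone genes and TXNIP stand highest, and ID1 and ID3 stand lowest.

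The largest fitted rises on the log2(RPKM + 1) scale were in histone mRNAs. HIST3H2BB, which encodes a histone H2B, was at 0.779 and 0.414 RPKM in the growing libraries and at 4.67 and 4.12 RPKM after PP242 (log2 change 1.76 ± 0.11, adjusted p = 0.00129). HIST1H2AC, an H2A gene, went from 1.56 and 1.08 RPKM to 7.19 and 6.13 RPKM (1.73 ± 0.11). Both are weakly expressed, and HIST3H2BB reached a mean of 1 RPKM only through the PP242 libraries. HIST2H4A rose from 3.53 and 3.33 RPKM to 12.6 and 11.1 RPKM, and its copy H4C15 has the same values because the reads of the 2 loci could not be separated. HIST3H2A, on chr1:228622478-228645574 of GRCh37 on the minus strand, showed the closest replicates of this group, at 8.63 and 8.78 RPKM in growth and at 20.0 and 20.0 RPKM after PP242 (1.11 ± 0.03, adjusted p = 0.000339).

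Other large rises were in regulators of metabolism, growth and transcription. TXNIP, which binds thioredoxin and restrains glucose uptake, lies on chr1:145438490-145442635 (GRCh37, plus strand). It was at 7.15 and 7.89 RPKM in growth and at 22.3 and 21.7 RPKM after PP242, a 2.92-fold difference of the means (log2 change 1.43 ± 0.05, adjusted p = 0.000342). EGR1, a zinc finger factor of the early serum response, rose from 0.71 and 0.536 RPKM to 2.33 and 2.15 RPKM (1.00 ± 0.06), and reached a mean of 1 RPKM only through the PP242 libraries. In all, 63 genes were below 1 RPKM in growth and 13 of them were called higher. KLF6, a Krüppel-like factor, rose from 2.07 and 2.11 RPKM to 5.0 and 4.87 RPKM (0.94 ± 0.04). The replicates lay close together in TXNIP and KLF6 and farther apart in EGR1. The small GTPase gene RHOB rose from 27.8 and 26.2 RPKM to 48.6 and 45.7 RPKM, and RASSF1, a scaffold of the Hippo pathway, rose by 0.77 ± 0.04. HIST1H2BD, HIST2H2BC, HIST1H2AG and HIST1H3H complete the 15 largest rises among called genes with a name, with changes of 0.74 to 0.81.

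Among genes with a mean of at least 50 RPKM, JUN rose most. This AP-1 subunit, a gene of 1 exon on chr1:59242517-59249720 (minus strand), was at 54.3 and 51.4 RPKM in growth and at 95.7 and 94.6 RPKM after PP242 (0.84 ± 0.03, adjusted p = 0.000374). GAS5, a noncoding RNA that carries small nucleolar RNAs in its introns, went from 130 and 129 RPKM to 185 and 182 RPKM (0.50 ± 0.02). The linker histone gene H1F0, the snoRNA host SNHG1 and the mitotic kinase gene PLK1 followed with 0.41, 0.40 and 0.34.

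On the scale of log2(RPKM + 1) the falls were led by ID genes. As folds of the means, DUSP2 (0.26), SNORD77 (0.30) and SOX18 (0.32) fell further than ID1 (0.34). ID1, on chr20:30193086-30194318 (plus strand), encodes an inhibitor of helix-loop-helix transcription factors and is a classic target of bone morphogenetic protein (BMP) signaling. It fell from 10.2 and 9.04 RPKM to 3.12 and 3.41 RPKM (-1.31 ± 0.06, adjusted p = 0.000639). Its relative ID3, on chr1:23884417-23885992 (minus strand), fell from 64.4 and 60.7 RPKM to 27.7 and 26.5 RPKM (-1.18 ± 0.04, adjusted p = 0.000342). DUSP2, a phosphatase that inactivates ERK, fell from 1.97 and 2.26 RPKM to 0.6 and 0.504 RPKM (-1.01 ± 0.06). DUSP2, SOX18 and SNORD77 reached a mean of 1 RPKM only through the growing libraries, as did 81 genes in all, of which 23 were called lower.

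The rest of the 15 largest falls among called genes with a name follow. SERTAD3, a transcriptional coregulator, went from 4.86 and 4.56 RPKM to 2.05 and 1.93 RPKM, and BAMBI, a decoy receptor for BMP and TGF-β, from 10.1 and 9.06 RPKM to 4.84 and 4.9 RPKM. RGS16, which shuts off G protein signaling, fell by 0.86, the gene of the vasodilator peptide ADM by 0.78, the mitochondrial phospholipase gene PLD6 by 0.77, the endothelial factor SOX18 by 0.77 and the homeobox gene DLX2 by 0.76. The list also held the snoRNAs SNORD45C, SNORD77, SNORD44, SNORD65 and SNORA51, at changes of -1.0 to -0.82. SNORD44 was uneven in growth (5.98 and 3.29 RPKM) and its limma adjusted p was 0.047, with a range of 0.00159 to 0.209 over 13 other settings, and the call was lost in 7 of them, among these both settings that leave out 1 PP242 library, median scaling and quantile normalization. SNORD77 lost its call without growing library 2, and HIST1H2BD among the rises without PP242 library 1.

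Among genes of at least 50 RPKM the falls were smaller. CDC6, which loads the replicative helicase, went from 56.9 and 58.6 RPKM to 44.7 and 45.5 RPKM (-0.35 ± 0.03). POP7, a subunit of RNase P, fell by 0.34, ID2 by 0.32, the flap endonuclease gene FEN1 by 0.31 and MAT2A, which makes S-adenosylmethionine, by 0.30. No gene at this level fell as far as JUN rose.

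**Figure D2:**
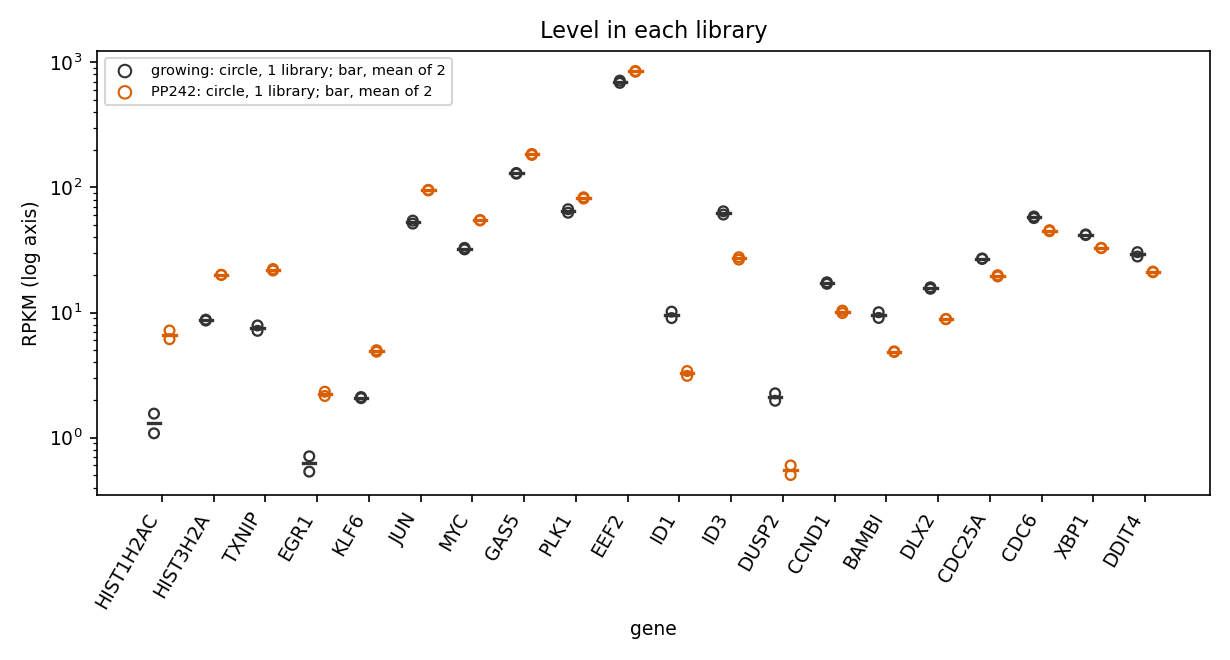
RPKM in each library (vertical, log axis) for 20 genes named in the text, with a circle for each library and a bar at the mean of 2, growing in grey and PP242 in orange. In every gene shown both PP242 circles lie on 1 side of both growing circles, and HIST1H2AC, EGR1 and DUSP2 show the widest gaps between replicates.

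The genes were then read by pathway, from lists described by their counts and median beside those of all genes, whose median change was -0.01. Histone genes were mostly higher. Of 76 that the table holds, 33 reached 1 RPKM, and of these limma called 19 higher and 0 lower, with a median of 0.40 and 1 lower at an unadjusted p under 0.05. HIST3H2BB, HIST1H2AG, HIST2H3A and HIST2H3C were below 1 RPKM in growth and entered only through their PP242 values, and without these 4, a choice made after seeing the data, the count was 15 of 29 and the median 0.30. With a minimum of 5 RPKM 7 of 15 were higher and the median was 0.04, and with a pseudocount of 5 RPKM the median of the 33 was 0.18. The count was 17 to 19 with any 1 of the 4 libraries left out. Within the list, 17 of 22 genes of the HIST clusters were higher (median 0.53), and so were 2 of 11 other histone genes (median 0.01), H1F0 and H2AFX. Of the replacement variants, H3F3A was at 302 and 301 RPKM in growth and at 301 and 304 RPKM after PP242, and H2AFZ changed by -0.05 (adjusted p = 0.154). The means of the HIST genes in growth ran from 0.597 to 38.1 RPKM, far below these variants. HIST cluster mRNAs mostly end in a stem-loop and lack the poly(A) tail, which is the form of RNA the labels give for these libraries, and the part of tail status in the rise was not tested. HIST2H3A and HIST2H3C share all 4 values, as do HIST2H2AA3 and HIST2H2AA4, so that 15 of the 17 are separate measurements.

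Many genes of the late cell cycle rose, and some of the early cell cycle fell. The G2/M list holds genes whose mRNA peaks before and in mitosis, many of them under the control of the DREAM and B-MYB complexes. Of its 40 members 24 were higher and 0 lower, with a median of 0.15. KIF20A, a kinesin of cytokinesis, was at 20.8 and 21.2 RPKM in growth and at 29.5 and 30.3 RPKM after PP242 (0.49 ± 0.03, adjusted p = 0.00102). CENPA, the centromeric histone, went from 7.25 and 7.2 RPKM to 10.0 and 10.6 RPKM, and CKS2, a CDK subunit, from 136 and 137 RPKM to 164 and 167 RPKM. HMMR rose by 0.41, AURKA by 0.31, CENPF by 0.27 and TOP2A by 0.20. CDK1 (-0.08, adjusted p = 0.0919) and FOXM1 (-0.03) were among the 16 that were not called. With growing library 1 or PP242 library 2 left out 11 members were higher, with growing library 2 left out 14, and with PP242 library 1 left out 15, in every case with 0 lower.

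Of 57 genes of the G1/S transition and DNA replication, which are mostly E2F targets, 14 were lower and 1 was higher (median -0.06). CCND1, cyclin D1, fell from 17.5 and 17 RPKM to 10.4 and 9.91 RPKM (-0.71 ± 0.03, adjusted p = 0.000645). CDC25A, the phosphatase that activates CDK2, fell from 26.8 and 27.1 RPKM to 19.9 and 19.4 RPKM. The cyclin E genes CCNE2 and CCNE1 fell by 0.45 and 0.38, and the regulators E2F2, E2F8 and E2F1 by 0.40, 0.39 and 0.25. The member that rose was ORC5 (0.24), a subunit of the origin recognition complex. Without 1 library 8 or 9 members were lower, 8 without growing library 1. Of 7 CDK inhibitor genes CDKN1B rose (12.1 and 11.8 RPKM to 14.8 and 14.4 RPKM) and CDKN1A fell (3.77 and 3.73 RPKM to 2.39 and 2.18 RPKM).

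Promoter sequence of the cell cycle genes was examined in the RefSeq promoters (GRCh38.p14), 250 bases before to 50 bases after the annotated start, on both strands. They were found for 33 of the 40 G2/M genes and 48 of the 57 G1/S genes. The cell cycle homology region, TTTGAA, was in 69.7% of the G2/M promoters, against 9.34% of 9154 promoters of genes tested here and 15.4% of all 27305 promoters. The CCAAT box, CCAAT, was in 81.8% of them, against 37.9% and 35.7%. Windows of 30 bases around the first element are shown for 5 of the genes called higher. They were picked by the size of their change among genes with a match, and the match nearest the start was taken. The match is in capitals, and the window is on the strand of the gene and located in GRCh37. CKS2 holds it on the opposite strand, so that its match reads TTCAAA.
CENPA chr2:27008894-27008923 plus strand: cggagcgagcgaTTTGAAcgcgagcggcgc
HMMR chr5:162887604-162887633 plus strand: gggagatttgaaTTTGAAaccggtagggag
PLK1 chr16:23690169-23690198 plus strand: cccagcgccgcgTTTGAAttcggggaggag
CKS2 chr9:91926069-91926098 plus strand: cgggctgtcggaTTCAAAtccggatcgttg
CENPF chr1:214776558-214776587 plus strand: ccggtggcggctgcgggcagTTTGAAttag
In HMMR the same letters also stand directly before the match shown. The match begins 18 bases before the start in CENPA, 22 in HMMR and 29 in PLK1 and CKS2, and 40 bases after it in CENPF. Of the 23 G2/M genes with the element 14 were higher (median 0.16), and so were 6 of the 10 without it (median 0.13). A match is a description of these letters and not a bound site.

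In the G1/S promoters the E2F forms TTTCCCGC and TTTGGCGC were in 25.0% and 18.8%, against 2.76% and 1.19% of the promoters of genes tested and 1.66% and 0.659% of all promoters. Windows are shown for 5 genes that were called lower, picked by the size of their change among those with a match to either form. The match nearest the start was taken, and in each of the 5 it is the second form, within 50 bases of the start.
CDC25A chr3:48229933-48229962 minus strand: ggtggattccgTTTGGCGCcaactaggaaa
E2F2 chr1:23857749-23857778 minus strand: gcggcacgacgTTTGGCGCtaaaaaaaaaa
CDC6 chr17:38444127-38444156 plus strand: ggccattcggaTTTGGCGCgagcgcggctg
E2F1 chr20:32274193-32274222 minus strand: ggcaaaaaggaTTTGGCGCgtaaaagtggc
GINS1 chr20:25388303-25388332 plus strand: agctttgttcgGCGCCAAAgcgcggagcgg
The changes of these genes ran from -0.44 in CDC25A to -0.11 in GINS1, which holds the element on the opposite strand.

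The octamer ATTTGCAT, the element of the OCT1 factor in histone H2B and many H2A promoters, was in 27.6% of 29 histone promoters, against 1.20% of those of genes tested and 1.80% of all. It is shown for 5 genes called higher with a match on either strand, which reads ATGCAAAT on the other.
HIST1H2AC chr6:26124259-26124288 plus strand: tgggcagagctATGCAAATgaggtatgaaa
HIST1H2AG chr6:27100603-27100632 plus strand: tagaatcgcttATGCAAATaaggtgaagag
HIST1H2BE chr6:26183870-26183899 plus strand: taagctccttcATTTGCATgcagacttcac
HIST1H2BK chr6:27114665-27114694 minus strand: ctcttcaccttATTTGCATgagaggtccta
HIST2H2AC chr1:149858260-149858289 plus strand: ataaccaccttATGCAAATtagggctccga
HIST1H2BK, the HIST gene with the most RPKM, rose from 39.2 and 37.1 RPKM to 55.1 and 55.1 RPKM (0.52 ± 0.03), and HIST1H2BE rose by 0.62 and HIST2H2AC by 0.28.

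Most ID genes and BMP-SMAD targets were lower. BMP receptors phosphorylate SMAD proteins, which activate ID genes and their own inhibitors SMAD6 and SMAD7. Of 19 ID and BMP-SMAD genes 13 were lower and 0 higher, with a median of -0.34. With a minimum of 5 RPKM 7 of 12 were lower and 1 higher, and the median was -0.29. With any 1 library left out the median was -0.34 to -0.31. Beside ID1, ID3, BAMBI and DLX2, the homeobox gene MSX2 fell from 16.1 and 15.5 RPKM to 9.15 and 8.79 RPKM. SMAD7 fell by 0.74, DLX1 by 0.54, the BMP antagonist gene NOG by 0.44 and SMAD6 by 0.36. ID4 (0.07, adjusted p = 0.184) and the ligand genes BMP2 (0.14, adjusted p = 0.0882) and BMP7 (0.02) were not called.

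Developmental transcription factors, a list that shares the ID genes, fell in 15 of 23 and rose in 1 (median -0.31). With a minimum of 5 RPKM 12 of 19 were lower and 2 higher, and the median was -0.19. Without any 1 library the median was -0.31 to -0.24. HOXD13 went from 51.9 and 49.1 RPKM to 36.8 and 36.9 RPKM. SOX9 fell by 0.50, SALL1 by 0.36, SIX2 by 0.35, SOX12 by 0.34 and SIX4 by 0.33. The member called higher among the 23 was SOX4, which rose from 26.3 and 26.7 RPKM to 32.5 and 31.8 RPKM. CDX2, the intestinal homeobox factor among the markers, fell from 13.9 and 12.5 RPKM to 9.01 and 9.1 RPKM (-0.50 ± 0.05).

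ERK feedback genes are induced by the ERK pathway and in part restrain it. Of 12 such genes 9 were lower and 1 higher (median -0.40), and the count of lower members was 7 or 8 without any 1 library. The phosphatase genes DUSP2, DUSP7, DUSP5, DUSP1 and DUSP8 fell by 1.01, 0.50, 0.49, 0.47 and 0.28, SPRY2 by 0.42 and the receptor gene EPHA2 by 0.37. DUSP2 counts among the 9 but reached a mean of 1 RPKM only through the growing libraries. With a minimum of 5 RPKM 4 of 5 members were lower and 1 higher. MYC was the member that rose, from 32.0 and 32.9 RPKM to 54.5 and 55.0 RPKM (0.74 ± 0.03, adjusted p = 0.000374). In the MYC, MAX and MXD network of 9 genes MYC was the only one higher, and MLX, the partner of MondoA, fell by 0.16, a call that was lost without any 1 library. TXNIP and its arrestin-domain relatives, which are targets of MondoA and MLX, gave 3 higher and 0 lower of 5. ARRDC3 rose from 2.46 and 2.67 RPKM to 3.7 and 3.51 RPKM and ARRDC4 by 0.30, and without growing library 1 or PP242 library 2 there were 2.

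Immediate early genes, which growth factors induce without new protein synthesis, divided. Of 21 members 5 were higher and 10 lower (median -0.14). EGR1, KLF6 and JUN rose by 0.84 to 1.00 and ATF3 and BTG1 by 0.27 and 0.22. EGR1 counts among the 5 but reached a mean of 1 RPKM only through the PP242 libraries. With a minimum of 5 RPKM 3 of 9 members were higher and 3 lower. ZFP36L2, a destabilizer of mRNAs, fell from 14.4 and 14.6 RPKM to 9.02 and 9.2 RPKM (-0.62 ± 0.03). BTG2 fell by 0.51, CYR61 and FOSL1 by 0.41, SRF by 0.36 and FOSL2 by 0.31, so that AP-1 subunits were called in both directions. Without growing library 1 the counts were 3 and 3, without growing library 2 or PP242 library 1 they were 3 and 7, and without PP242 library 2 they were 5 and 7. The promoter of EGR1 holds 2 CArG boxes, the element of the serum response factor, in overlapping windows.
EGR1 chr5:137801053-137801082 plus strand: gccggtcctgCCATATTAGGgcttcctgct
EGR1 chr5:137801075-137801104 plus strand: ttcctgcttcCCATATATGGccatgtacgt
A CArG box was in 1.29% of all promoters and in 1.72% and 1.16% of those of genes called higher and lower. SRF, the factor itself, was at 18.7 and 18.6 RPKM in growth and at 14.2 and 14.3 RPKM after PP242.

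Further signaling lists are small, and the shares called in Notch targets (20.0%) and clock genes (15.4%) lay near the 12.4% of all genes. Of 12 Krüppel-like factor genes KLF6 rose, and 5 fell, among them KLF16 (-0.30) and KLF4 (-0.29), and 2 or 3 were lower without any 1 library. Of 19 p53 targets 7 were lower and 1 higher (median -0.12). Among these BTG2 and CDKN1A fell by 0.51 and 0.53 and MDM2 by 0.21, and 3 or 4 were lower and 0 higher without any 1 library. Of 9 Wnt targets MYC and LGR5 were higher and CCND1, FZD7 (-0.45) and AXIN2 (-0.42) lower, with 1 higher without growing library 1 or 2 or PP242 library 1. Of 10 Notch targets 2 were lower, NRARP and HES4, with 1 lower without growing library 2, 2 without PP242 library 1 and 0 without either other library. Of 15 NF-κB and interferon-responsive genes IFIT2 rose by 0.46 and 3 fell, IFITM3 by 0.31, IRF1 by 0.28 and IFITM1 by 0.19, with 0 or 1 lower without any 1 library. Of 13 clock genes PER1 and DBP fell by 0.20 and 0.33, with 0 or 1 lower without any 1 library.

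Receptor, IRS and FOXO genes were of interest because mTOR inhibitors release feedback on receptor signaling and activate FOXO factors. Of 21 members 5 were higher and 0 lower (median 0.03). They were KLF6, CDKN1B (0.27), CCNG2 (0.26), GADD45A (0.19) and TRIB1 (0.18), and 2 or 3 were higher without any 1 library. Of 36 genes of the mTOR pathway, of which 11.1% were called against 12.4% of all genes, MTOR itself rose by 0.13 and 3 fell. DDIT4, an inhibitor of mTORC1 that stress and hypoxia induce, fell from 28.0 and 30.4 RPKM to 21.0 and 21.3 RPKM (-0.45 ± 0.04), while RRAGA, a Rag GTPase, and SESN2, a leucine sensor, fell by 0.16 and 0.13. MTOR was not called without any 1 library, and 1 or 2 of the others were. Of 51 autophagy and lysosome genes GABARAPL1 and CTSD rose by 0.15 and 0.11 and C12orf44 fell by 0.22, calls that mostly depended on having all libraries. With median scaling 6 members were higher and 0 lower, and with quantile normalization 5 and 0. With a minimum of 5 RPKM 5 of 36 were higher and 1 lower. The share called among the 51 was 5.88%, below the 12.4% of all genes.

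**Figure D3:**
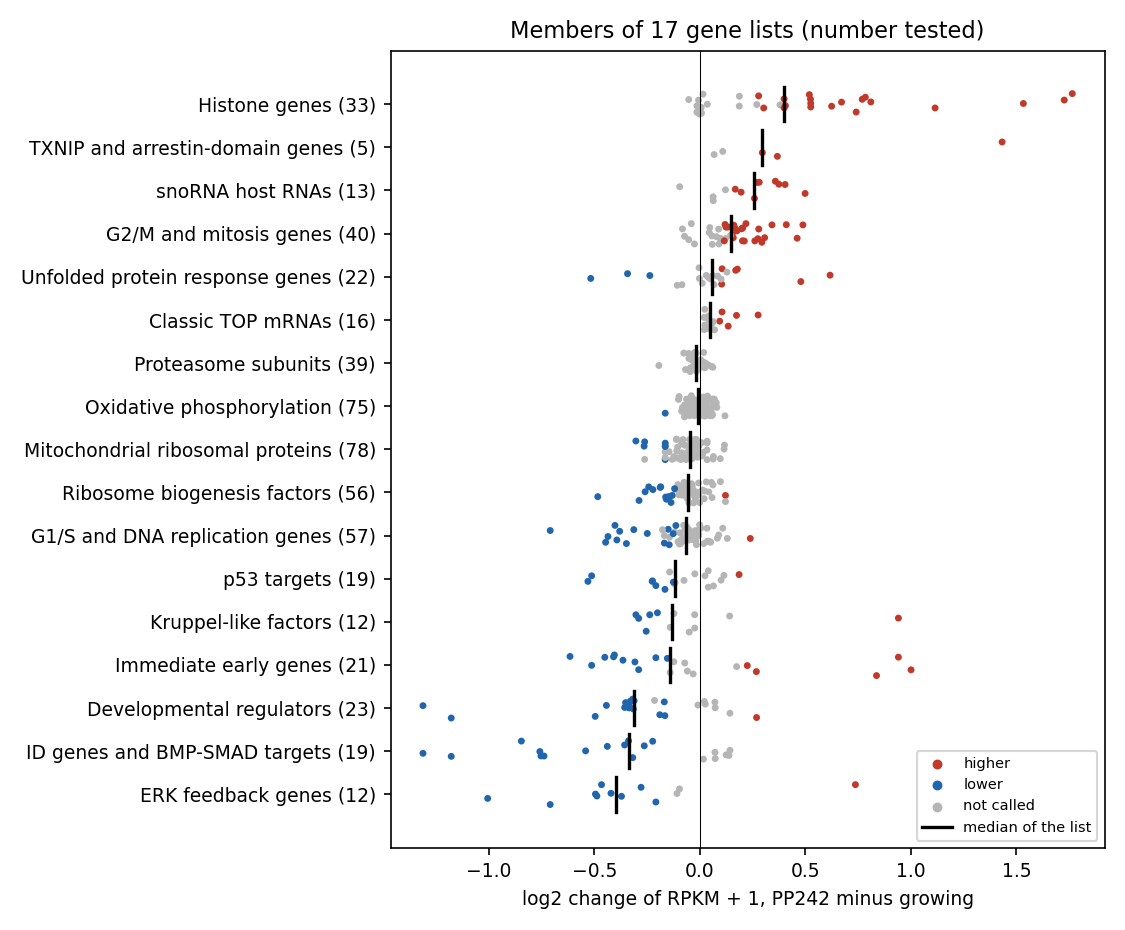
Log2 change of RPKM + 1 (horizontal) for the members of 17 gene lists, with 1 point for each gene, red where called higher, blue where called lower and grey where not called, and a black bar at the median of the list. Histone and G2/M genes lie mostly to the right of 0, ID and BMP-SMAD genes and ERK feedback genes mostly to the left, and proteasome and oxidative phosphorylation genes close to it.

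Genes that make the translation machinery other than ribosomal proteins moved by small amounts. The classic TOP mRNAs begin with a pyrimidine tract through which mTORC1 controls their translation. Of 16 outside ribosomal proteins 5 were higher and 0 lower (median 0.05), with 2 or 3 higher without any 1 library. EEF2, the elongation factor of translocation, went from 713 and 685 RPKM to 853 and 840 RPKM (0.28 ± 0.03, adjusted p = 0.00371), VIM from 212 and 210 RPKM to 238 and 239 RPKM, and EIF4B and PABPC1 rose by 0.13 and 0.09. HNRNPA1 rose by 0.10, but it shares reads with near-identical copies and its value is uncertain. Of 40 initiation factor genes 2 were higher, EIF4A2 (0.20) and EIF4B, and 2 lower, EIF4EBP1 (-0.18) and EIF1B (-0.12). The share called, 10.0%, lay below the 12.4% of all genes. With median scaling 2 were higher and 0 lower, and the median was 0.01 to 0.02 without any 1 library. Of 20 aminoacyl-tRNA synthetase genes QARS alone was called (0.11), and 0 were without any 1 library.

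Ribosome biogenesis factors fell in 14 of 56 and rose in 1 (median -0.06). RRS1, needed for the assembly of the large subunit, fell from 38.7 and 36.8 RPKM to 26.4 and 27.0 RPKM (-0.48 ± 0.03, adjusted p = 0.00163). BRIX1 fell by 0.29, UTP15 by 0.26, BYSL by 0.24 and NIP7 by 0.22. Without any 1 library 5 to 8 were lower and 0 higher. Of 19 genes for RNA polymerase III and its factors 4 were lower, with POLR3F at -0.30 and POLR3G at -0.22, and POLR3GL rose by 0.16. Without any 1 library 2 or 3 were lower and 0 higher. POLR3G and POLR3GL encode alternative forms of the same subunit. Of 78 mitochondrial ribosomal protein genes 6 were lower and 0 higher (median -0.05), with MRPL17 at -0.30. The share lower, 7.69%, lay near the 8.43% of all genes. With median scaling 3 were lower and 1 higher, and with a minimum of 5 RPKM 11 and 2. The median was -0.07 to -0.04 without any 1 library.

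Most metabolic lists held few calls. Of 27 cholesterol synthesis and SREBP target genes 2 were lower, MSMO1 (-0.29) and EBP (-0.10), and 0 were higher with limma, where 3 had an unadjusted p under 0.05 in that direction. With a minimum of 5 RPKM 1 member was higher, as with the replicate number as a block. Without growing library 1 there were 3 lower, and without any other library 1. Of 17 fatty acid synthesis genes 3 rose, LPIN1 (0.29), ACACB (0.22) and FASN, which went from 76.7 and 74.1 RPKM to 85.9 and 87.1 RPKM, and MID1IP1 fell by 0.23, with 0 lower in this list without growing library 1 or PP242 library 2. Of 25 genes of purine and pyrimidine synthesis RRM2 fell by 0.15, of 23 glycolysis genes GPI rose by 0.12, and of 7 pentose phosphate genes limma called 0, with 3 at an unadjusted p under 0.05. Of 14 HIF-1 genes 3 were lower, ADM, EGLN3 (-0.41) and HIF1A (-0.22). Of 75 genes of oxidative phosphorylation UQCRFS1 alone was called (-0.16). limma called 0 of 24 genes of the tricarboxylic acid cycle and 0 of 39 proteasome genes, with 2 and 3 at an unadjusted p under 0.05. Without growing library 1, 2 glycolysis genes were lower and 1 pentose phosphate gene higher, and with a minimum of 5 RPKM the counts were 3 and 1. Without PP242 library 1, 1 gene of the tricarboxylic acid cycle was higher. The single calls of RRM2 and GPI were lost without any 1 library, and that of UQCRFS1 was kept only without PP242 library 1.

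Stress genes were called in both directions. Of 28 ATF4 target and amino acid synthesis genes 4 were higher and 5 lower (median 0.00), with ATF4 itself at 211 and 210 RPKM in growth and at 249 and 249 RPKM after PP242. CEBPB, CHAC1 and DDIT4 fell by 0.54, 0.52 and 0.45, while DDIT3 rose from 2.3 and 1.99 RPKM to 3.4 and 3.35 RPKM. Without any 1 library 2 or 3 were higher and 2 or 3 lower. Of 22 genes of the unfolded protein response 6 were higher and 3 lower (median 0.06). PPP1R15A, a phosphatase subunit that restores translation after stress, rose from 13.7 and 12.6 RPKM to 21.0 and 20.4 RPKM, and XBP1 fell from 41.6 and 42.1 RPKM to 32.7 and 32.9 RPKM. Without any 1 library 2 or 3 of them were higher. Of 37 chaperone genes 2 were higher and 4 lower, with BAG3 at -0.31 and HSPA8 falling from 584 and 584 RPKM to 519 and 530 RPKM, and without growing library 1 these counts were 0 and 1. Of 39 splicing factor genes 7 were lower and 2 higher, HNRNPAB by -0.17 and SRSF7 by -0.16, and 0 to 3 were lower and 0 or 1 higher without any 1 library.

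Zinc finger genes of the ZNF series, many of which encode repressors, gave 46 lower and 16 higher of 352 (median -0.05), 17.6% called. ZNF296 fell from 3.47 and 3.48 RPKM to 1.75 and 1.88 RPKM, ZNF367, a gene of the E2F program, from 8.39 and 8.48 RPKM to 5.38 and 5.16 RPKM, and ZNF238 by 0.44. ZNF627 rose by 0.42 and ZNF19 by 0.38. Without any 1 library 19 to 29 were lower and 7 or 8 higher.

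The direction of the calls is given by class of transcript. Of 18304 mRNA accessions 3.09% were higher and 6.88% lower. Of 485 accessions of long noncoding RNA genes 14.6% were higher and 5.15% lower, and without the snoRNA host RNAs these values were 12.6% and 5.21%. Of 290 pseudogene accessions 5.86% were higher and 1.38% lower, although reads of pseudogenes and their parent genes may be shared. Of 671 noncoding accessions of protein-coding genes 3.43% were higher and 2.68% lower. Of 140 snoRNAs 3.57% were higher and 13.6% lower, and of 53 miRNAs 5.66% and 7.55%. These classes were formed after earlier results were known, accessions of a gene are not independent, and no test of the difference was made.

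**Figure D4:**
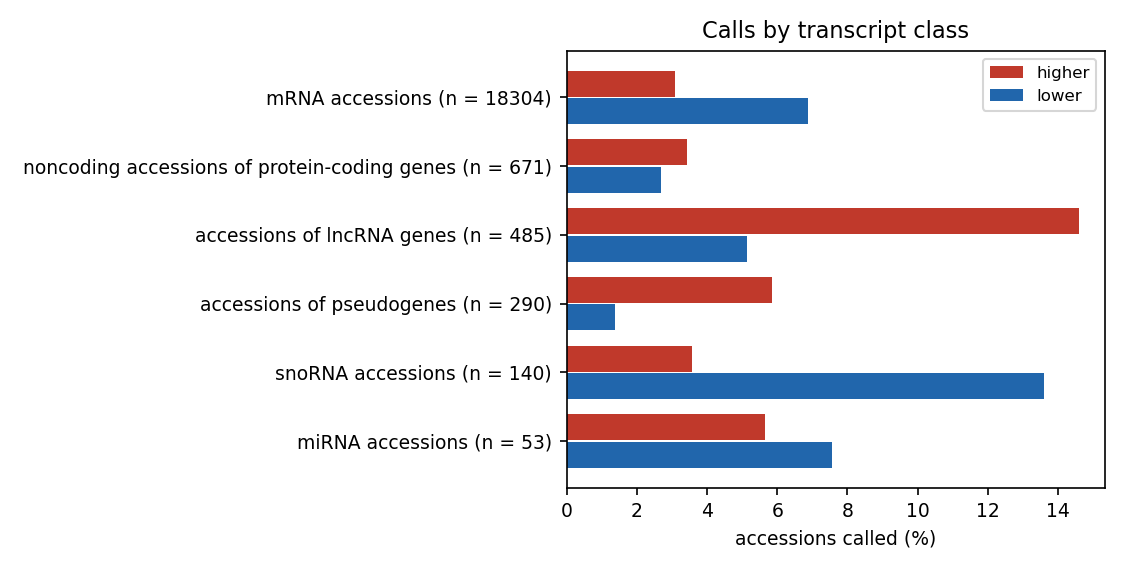
Percentage of accessions called higher (red) and lower (blue) after PP242, by class of transcript, with the number of accessions tested in each class. Long noncoding RNA genes have the longest red bar, at 14.6%, and snoRNAs the longest blue bar, at 13.6%.

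Most snoRNA host RNAs were higher. Hosts such as GAS5 and the SNHG genes carry snoRNAs in their introns, their spliced RNAs often begin with a TOP tract, and they are degraded when translated. Of 13 hosts 9 were higher and 0 lower (median 0.26), and 6 to 8 were higher without any 1 library. SNHG1 went from 97.0 and 92.5 RPKM to 125 and 126 RPKM, SNHG15 from 42.8 and 40.5 RPKM to 54.6 and 52.7 RPKM, and SNHG6, SNHG12 and SNHG5 rose by 0.28, 0.26 and 0.17. SNHG8 (-0.10, adjusted p = 0.305) and SNHG3 (0.06) were not called. Of 140 snoRNAs of at least 1 RPKM 5 were higher and 19 lower, with a median of -0.20. snoRNAs lack poly(A) tails and are short, and their values in these libraries may rest on few reads, which RPKM values do not show. The table files 53 snoRNAs also under 25 host genes tested here, and 10 of these snoRNAs were lower and 0 higher (median -0.31). Under hosts that were higher 5 of 29 were lower (median -0.34), and under hosts that were not called 3 of 19 (median -0.27), and under hosts that were lower 2 of 5 (median -0.34). Of 7 under SNHG1 0 were called. Under GAS5 there were 5. SNORD77 (1.99 and 2.82 RPKM to 0.961 and 0.47 RPKM) and SNORD44 were lower, and both calls are unstable as given above. SNORD80 (-0.20, adjusted p = 0.501), SNORD76 (-0.12) and SNORD47 (-0.00) were not called.

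Genes with several accessions were read for calls in each of them. Of 4398 genes with at least 2 accessions tested, 3947 had no accession called, 92 had every accession higher, 183 had every accession lower, and 175 had some but not all called, in 1 direction. Accessions of a gene can share reads, and 366 accessions have the same 4 values as another, of the same or another gene. SNHG7 was the gene with calls in both directions. Its accession NR_024542.1 went from 24.0 and 23.0 RPKM to 31.2 and 30.2 RPKM, and NR_003672.2 went from 5.48 and 5.6 RPKM to 4.67 and 4.71 RPKM. Among accessions without a gene name, XR_133198.1 and XR_132878.1 rose by 1.18 and 1.17.

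The changes were related to the number of exons of a gene, a relation looked at after the lists had been seen. GENCODE v44 exons of the canonical transcript were available for 10516 mRNA genes. Among 1089 genes with 2 or 3 exons 28.5% were lower and 3.03% higher, with a median of -0.09. Genes with 4 to 7 exons were lower in 11.3%, those with 8 to 15 exons in 4.56%, and those with 16 or more in 1.31%, while 4.61% of the last group were higher (median 0.03). Of 217 genes with 1 exon 32.7% were lower and 12.0% higher, and without histone genes these shares were 37.2% and 3.66%. ID1, BAMBI, DLX2, MSX2 and ZNF296 have 2 or 3 exons and RRS1 has 1, whereas the called genes MTOR and FASN, both higher, have 58 and 43. Higher genes with few exons include JUN, RHOB and H1F0 with 1, EGR1 and IFIT2 with 2 and MYC, ATF4, PPP1R15A, CKS2 and CDKN1B with 3, and PER1, which was lower, has 23.

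Genes with 2 or 3 exons and those with at least 16 differed in the same direction at each level and length. Genes with 1 exon were less one-sided in places. At 50 RPKM or more 20.0% of 15 were higher and 20.0% lower. With canonical transcripts of less than 2000 bases 24.1% of 83 were higher and 26.5% lower. Genes with 2 or 3 exons were lower in 23.3%, 33.7%, 33.6% and 23.2% at 1 to 5, 5 to 20, 20 to 50 and at least 50 RPKM, and those with at least 16 exons in 1.15%, 1.43%, 1.5% and 0.877%. The classes between did not keep their order at 50 RPKM or more, where 4.32% of genes with 4 to 7 exons and 5.86% of those with 8 to 15 were lower. With canonical transcripts of less than 2000 bases, 2000 to 4000 bases and longer, the shares were 24.0%, 31.6% and 30.8% against 0.0%, 1.14% and 1.4%, the first of these being 29 genes. Spearman's rho over the 10516 genes between change and exon number was 0.37, and it was 0.31 for the length of the locus and 0.16 for the length of the transcript. The median locus was 13.63 kb in genes called lower and 36.55 kb in genes not called, so that exon number and locus length were not separated. For exon number it was 0.13 for growing library 2 minus 1 and 0.06 for PP242 library 2 minus 1. All genes come from the same 4 libraries and genes are not independent, so these are descriptions. In each of the 4 pairings of a PP242 with a growing library the median was below -0.09 in genes with 2 or 3 exons and above 0.02 in those with 16 or more, while replicates differed by medians of -0.0071 and 0.0062 in the former and 0.0146 and 0.0139 in the latter. With any 1 library left out, 160 to 209 genes with 2 or 3 exons and 8 to 12 with 16 or more were lower, and 26 to 41 of the latter were higher against 116 with all libraries.

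**Figure D5:**
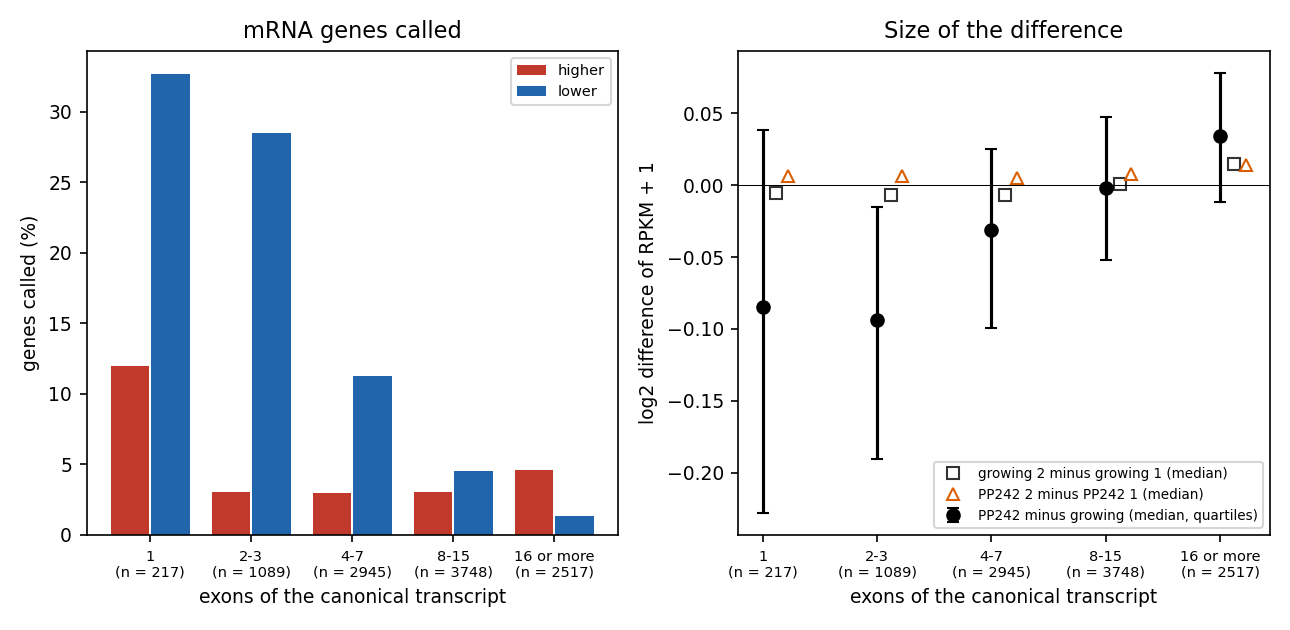
Left, percentage of mRNA genes called higher (red) and lower (blue) by the number of exons of the canonical transcript. Right, median log2 difference of RPKM + 1 for PP242 minus growing (black, with quartiles over genes) and for 1 replicate minus the other in growth (squares) and after PP242 (triangles), where the black medians run from -0.09 in genes with 2 or 3 exons to 0.03 in those with 16 or more.

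The mRNA-seq changes were also read for genes bound by LARP1 in the PAR-CLIP data of the study. PAR-CLIP maps RNA contacts of a protein by crosslinking, with 1 library in each condition here, from cells that were also given 100 µM 4-thiouridine. Of 158 genes outside ribosomal proteins with a site of at least 1 RPM (reads of the site, scaled to the mapped reads of the library) in the growing library 10 were higher and 8 lower, and of 350 with such a site in the mTOR-inactive library 12 were higher and 20 lower. These are 6.33% and 5.06%, and 3.43% and 5.71%, against 3.60% and 8.86% of 10138 genes with no site of at least 1 RPM. The last set may hold weaker sites. The threshold of 1 RPM was set here, whereas the paper used an empirical RPM threshold, so these sets are not its bound mRNAs. The median change was -0.00, 0.00 and -0.01 in these sets. Bound genes were more highly expressed, with a median of 22.2 and 24.1 RPKM against 7.46 RPKM, and the shares varied with level. At 20 to 50 RPKM 3.85% of genes with such a site in either library were higher and 4.81% lower, against 2.71% and 9.92% without such a site. At 50 to 100 RPKM the shares were 3.23% and 9.68% against 3.91% and 8.85%, and at 100 RPKM or more they were 5.81% and 1.16% against 3.11% and 3.56%. No test of these differences was made.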

How the data were processed

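The authors mapped mRNA-seq reads to the human transcriptome (GRCh37) with Bowtie, kept perfect matches, divided reads with several matches evenly, and deposited RPKM values for each transcript and library. They also deposited LARP1 sites in RPM. Whether strand was used in counting is not given in the sources used here. RPKM values give no read counts, so no count test and no counting error are given. All 4 columns of single libraries were used, and the columns of the authors' means were not. Of 39711 lines, 1273 repeats of an accession were dropped. Names came from the table, or by accession from RefSeq for 1839 of the tested accessions.

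log2(RPKM + 1) was fitted for the 21014 transcripts whose mean reached 1 RPKM in limma 3.58.1 (R 4.3.3; lmFit, eBayes with a trend), PP242 against growing, 2 libraries each, with Benjamini-Hochberg adjustment. An exact permutation test of 2 against 2 cannot go below p = 0.333. On simulated data for this comparison 198 of 200 transcripts changed by 0.25 were called, with 22 unchanged ones, and 0 when none was changed. The simulation gave all transcripts of a level the same spread. In the real fit the spread varied between transcripts (limma prior degrees of freedom 3.99), so the simulation does not give the recovery in these data. Named genes are the 15 largest rises and falls, the 5 largest at 50 RPKM or more, and up to 3 of smallest p in each list. Any other name was picked with its values known. The members and lists were chosen with earlier results of these data known. Python 3.11.15, numpy 2.4.6, pandas 2.3.3 and matplotlib 3.10.9 were used. One gene of the lists is not reported here.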

Additional observations from a re-analysis of the deposited data

How the results depend on the processing

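As reported, 727 transcripts were higher and 1356 lower (461 and 979 genes). Without a filter on RPKM, which tests 38255 transcripts, 56 and 63 were called (35 and 52 genes), and 84 of 114 called genes named by rule lost the call; the cause was not tested. With 1 accession per gene in the fit, which tests 12528 transcripts, 408 and 880 were called. Counted as genes these were 371 and 869, and the cause of the lower counts was not tested. Leaving out 1 library gave 310 to 346 transcripts higher and 553 to 741 lower, and 198 to 230 genes higher and 434 to 579 lower, and cost 32 and 26 of the 114 genes their call without growing libraries 1 and 2 and 22 and 26 without PP242 libraries 1 and 2; the lone library is then assumed to vary like the other pair. Scaling the libraries to the same median gave 867 and 1105, so that 44% of calls were higher instead of 34.9%, and quantile normalization gave 862 and 1171. Other pseudocounts, a minimum of 5 RPKM, no trend and ribosomal protein transcripts left out kept these counts within 1.5 times, as did leaving out small RNAs (887 and 1596), an alternative chosen after seeing the data. None of the 114 genes changed direction in any setting where it was computed (86 with a minimum of 5 RPKM, 109 without small RNAs). The size of the changes depends on the pseudocount: with 5 RPKM instead of 1 the median was -0.20 instead of -0.40 in ERK feedback genes, -0.19 instead of -0.34 in ID genes and BMP-SMAD targets, -0.16 instead of -0.31 in developmental regulators and 0.18 instead of 0.40 in histone genes. Over all settings EGR1 ranged from 0.37 to 1.71 and SOX18 from -1.46 to -0.25. The lowest change was 1.11 in TXNIP, against 1.00 in HIST2H4A, 0.88 in HIST1H2AC and 0.75 in HIST3H2BB. The order of the largest rises therefore depends on the setting. A fit with the replicate number as a block gave 706 and 1419 calls (33.2% higher), and 112 of the 114 genes kept theirs. The replicate differences of the conditions correlated at 0.04 over transcripts, so the numbers are not taken to pair the samples. The p-values cover the spread between 2 libraries per condition only.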
